A study of Mus musculus with 6 samples.

Results

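The small leucine-rich proteoglycans are secreted matrix proteins built around a core of leucine-rich repeats. The 10 genes described here were listed by name, not by a threshold on measured values, and are *Dcn*, *Bgn*, *Aspn*, *Fmod*, *Lum*, *Kera*, *Omd*, *Prelp*, *Ogn* and *Podn*, out of 39179 genes in the counts. RNA had been sequenced from osteosarcomas of 6 mice on a mixed C57BL/6 x 129/Sv x FVB background, each tumor from a differently numbered animal. The tumors of mice No244, No316 and No368 were *Cd44*+/+; *Nf2*Δ2/+, and those of No203, No279 and No364 were *Cd44*-/-; *Nf2*Δ2/+. All 6 mice thus carried a mutant *Nf2* allele, and the groups differ by label in *Cd44* only. The labels used here give no age, sex, treatment or tumor site, and no tissue-restricted promoter for either allele. The comparison asks how gene expression in these tumors depends on CD44, a cell surface receptor for hyaluronan in the matrix.

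In bone and other connective tissues these proteoglycans bind collagen fibrils and affect their diameter and spacing. Class I members such as decorin and biglycan carry chondroitin or dermatan sulfate chains, class II members such as fibromodulin and lumican carry keratan sulfate, and several members bind growth factors of the TGF-beta family. Many of the genes lie in pairs or small clusters on the chromosomes.

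The libraries held from 18076388 to 26954142 counts, and levels are given as normalized counts (CPM, counts relative to the TMM-scaled size of each library). No316 and No368 differed by less than sampling noise at 87.2% of 16671 genes, against 15.7% to 24.1% in the other 14 pairs of tumors, and were counted as 1 sample in each mean ± SD. This left 2 *Cd44*+/+ samples against 3 *Cd44*-/- samples. *Cd44* itself was measured at 137, 243.6 and 240.3 CPM in *Cd44*+/+ mice No244, No316 and No368. It was at 19.2 CPM in No203, 15.7 CPM in No279 and 61.8 CPM in No364, below all *Cd44*+/+ tumors. Reads were counted over the whole gene, and its deleted part is not marked in the counts. The mitochondrial share of the counts was 55.2% in No244 and lay between 5.94% and 12.5% elsewhere. *Xist* was at 859 CPM or more in 4 tumors and below 1 CPM in No279 and No364, the tumors that also had counts of all 4 Y-linked genes looked up. Of these Y-linked genes, *Eif2s3y* also had 39 counts (3.28 CPM) in No244. No279 and No364 are both *Cd44*-/- tumors, whereas every *Cd44*+/+ tumor had *Xist*. Sex as read from these counts is thus partly confounded with genotype, also for genes on chromosome X such as *Bgn*.

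The label of osteosarcoma was compared with 9 osteoblast markers, which summed to between 9931 and 13239 CPM in 4 tumors and to 1553 and 2277 CPM in No279 and No364. *Sp7*, a transcription factor needed for osteoblast formation, was at 192, 192 and 199 CPM in mice No244, No316 and No368 and at 333 CPM in No203, but at 3.96 CPM in No279 and 0.314 CPM in No364. *Bglap*, which encodes osteocalcin, was at 3481, 2042 and 1833 CPM in *Cd44*+/+ tumors, at 269 CPM in No203, and at 4.79 and 6.80 CPM in No279 and No364. In No279 and No364, *Sp7*, *Ibsp*, *Bglap*, *Bglap2* and *Dmp1* were at 7.12 CPM or less. *Alpl* was at 7.16 CPM in No279 and 19.6 CPM in No364, against 481 to 718 CPM in the other 4 tumors. *Runx2* was at 68.3 CPM and *Phex* at 15.9 CPM in No279, but at 5.76 and 1.52 CPM in No364. *Spp1*, which encodes osteopontin, was at 1444 CPM in No279 and 2233 CPM in No364, most of the sum of the list in each. In No364 every gene of the list but *Spp1* was thus at 19.6 CPM or less. The list bears out the label only in part in No279 and, apart from *Spp1*, not in No364. The 15 hepatocyte markers summed to 142508 CPM in No364, with *Alb* at 60281 CPM, and to between 53.4 and 175 CPM in the other 5 tumors. The 10 skeletal muscle markers summed to 23502 CPM in No244, with *Acta1* at 4335 CPM, and to between 15.9 and 783 CPM elsewhere. In bulk tissue, fewer cells of a type and less RNA per cell cannot be told apart.

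**Figure D1:**
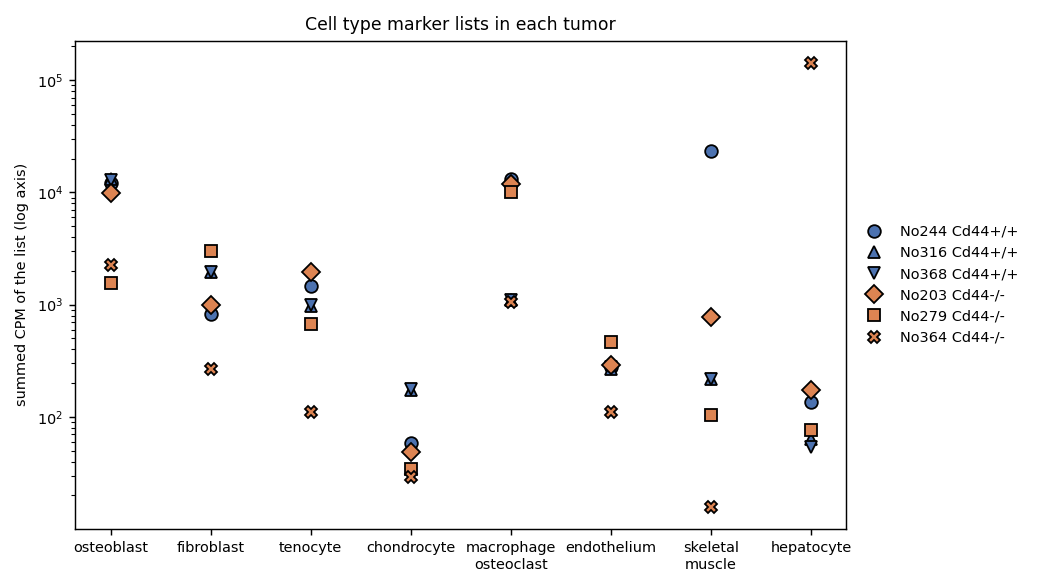
Summed level of 8 cell type marker lists in each tumor (CPM, log axis), with each tumor drawn as its own symbol and colored by genotype. The hepatocyte list reaches 142508 CPM in No364 alone, the muscle list 23502 CPM in No244 alone, and the osteoblast list is lowest in No279 and No364.

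Of the 10 genes, 8 lie in 3 clusters. On GRCm38, *Dcn*, *Lum* and *Kera* share chromosome 10, from 97479609 to 97682454, with the related gene *Epyc*. *Prelp* and *Fmod* share chromosome 1, from 133897199 to 134048277, with *Optc*. *Aspn*, *Omd* and *Ogn* lie side by side on the plus strand of chromosome 13, from 49504810 to 49624501, with *Ecm2*. *Cenpp* overlaps this stretch on the minus strand and shares 7 exonic bases with *Aspn*. *Prelp* shares 350 exonic bases with the antisense gene *Gm15851*, and the strand setting used in counting is not given in the sources used here, so its counts may include reads of that gene. *Bgn* stands alone on chromosome X, from 73483602 to 73495933, and *Podn* on chromosome 4, from 108014791 to 108096445.

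The RefSeq promoters (GRCm38.p6, from 250 bases before to 50 after the start) of the chromosome 13 neighbors are shown because their levels, given further on, moved unequally between tumors. A promoter of *Podn* is shown because it was the only member promoter with the CD44ICD response element CCTGCG. The study ties this sequence to the released intracellular part of CD44. The other *Podn* promoter, chr4:108030937-108031236, had 0 matches to the motifs searched and is not printed. Capitals mark matches to the motifs searched. *Aspn* is chr13:49544193-49544492, *Omd* is chr13:49582212-49582511, *Ogn* is chr13:49607765-49608064, all on the plus strand, and *Podn* is chr4:108031905-108032204 on the minus strand.
Aspn: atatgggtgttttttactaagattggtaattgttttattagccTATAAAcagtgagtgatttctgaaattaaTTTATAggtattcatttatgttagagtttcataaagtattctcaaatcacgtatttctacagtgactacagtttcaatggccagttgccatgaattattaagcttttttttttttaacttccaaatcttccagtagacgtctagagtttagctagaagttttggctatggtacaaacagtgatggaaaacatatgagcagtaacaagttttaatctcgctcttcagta
Omd: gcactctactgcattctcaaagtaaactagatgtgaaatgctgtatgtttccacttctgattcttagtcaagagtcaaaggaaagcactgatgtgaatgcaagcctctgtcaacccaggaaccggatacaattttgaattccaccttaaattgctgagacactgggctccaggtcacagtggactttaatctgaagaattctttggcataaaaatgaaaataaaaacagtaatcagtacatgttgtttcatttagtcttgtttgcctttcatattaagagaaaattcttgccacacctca
Ogn: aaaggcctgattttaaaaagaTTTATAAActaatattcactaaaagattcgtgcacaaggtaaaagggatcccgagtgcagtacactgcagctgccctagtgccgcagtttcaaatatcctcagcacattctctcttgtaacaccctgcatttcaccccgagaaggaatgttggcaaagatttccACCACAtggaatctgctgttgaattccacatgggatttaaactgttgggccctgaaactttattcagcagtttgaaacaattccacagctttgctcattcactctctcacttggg
Podn: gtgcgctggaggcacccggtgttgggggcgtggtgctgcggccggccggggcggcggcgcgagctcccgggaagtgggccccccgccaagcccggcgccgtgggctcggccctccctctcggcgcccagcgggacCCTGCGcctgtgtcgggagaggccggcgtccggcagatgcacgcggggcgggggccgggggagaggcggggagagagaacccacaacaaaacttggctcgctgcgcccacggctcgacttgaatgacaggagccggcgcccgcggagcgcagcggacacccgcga

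Promoters were found for 8 of the 10 members, 9 promoters in all, and for *Dcn* and *Lum* none was printed. Motifs were searched on both strands by exact letters. CCTGCG was found in 1 of the 8 members, *Podn*, from position -115 of the promoter shown, and in 17.3% of 32851 promoters of the same length. The TPA response element, TGACTCA or TGAGTCA, was found in no member and in 5.2% of all promoters. TATAAA, the letters of the TATA box, was found in *Aspn* and *Ogn* and in 13.6% of all promoters, with first bases at -207 and -178 from the start in *Aspn* and at -229 and -227 in *Ogn*. Each of these genes has 1 match on either strand, and in *Ogn* they overlap. The Runx core TGTGGT was found in *Ogn* only among the members and in 16.8% of all promoters, and the Smad-binding palindrome GTCTAGAC in no member and in 0.213% of all promoters. *Omd* had no match to any of the 5 motifs.

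Class I holds *Bgn*, *Dcn* and *Aspn*. *Bgn*, which encodes biglycan, an abundant proteoglycan of bone matrix, was at 2282, 3956 and 4074 CPM in mice No244, No316 and No368 and at 1034, 3488 and 315.6 CPM in No203, No279 and No364. Its lowest *Cd44*+/+ tumor lay below No279 and above the other *Cd44*-/- tumors, so the genotypes overlapped. *Dcn*, which encodes decorin, a binder of collagen and TGF-beta, was at 313, 542 and 526 CPM in *Cd44*+/+ tumors and at 125, 920.2 and 175 CPM in No203, No279 and No364. Both the highest and the lowest level of *Dcn* were found in *Cd44*-/- tumors. Its mean was 423 ± 157 CPM (SD, n = 2) in *Cd44*+/+ and 407 ± 445 CPM (SD, n = 3) in *Cd44*-/- samples.

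*Aspn* encodes asporin, a class I protein with a stretch of aspartates that binds collagen and calcium. It was at 7.56, 22.6 and 22.5 CPM in mice No244, No316 and No368 and at 35.7, 771 and 58.3 CPM in No203, No279 and No364. Among the tested members it was the only one whose genotypes did not overlap, with all *Cd44*-/- tumors above all *Cd44*+/+ tumors. No279 stood 13.2-fold above the next tumor, No364, which is a wider gap than that between No364 and the lowest tumor, No244 (7.71-fold). The mean was 15.1 ± 10.6 CPM (SD, n = 2) against 288 ± 418 CPM (SD, n = 3).

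Class II holds the keratan sulfate members and their relatives. *Fmod* encodes fibromodulin, which shares a binding site on collagen I with lumican. It was at 280.1, 575 and 587 CPM in mice No244, No316 and No368 and at 1693, 348 and 24.4 CPM in No203, No279 and No364. It was the only member with its highest level in No203, at 2.88-fold the next tumor. The lowest level, in No364, was 69.4-fold below that of No203, and both are *Cd44*-/- tumors.

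*Lum*, which encodes lumican, was at 5.04, 153 and 145 CPM in *Cd44*+/+ tumors and at 55.1, 2059.8 and 163 CPM in No203, No279 and No364. It had the widest range among the tested members, 409-fold between No244 and No279. No316 and No364, of opposite genotype, lay close to each other, while No203 lay below both. *Kera*, which encodes keratocan, a proteoglycan of the cornea, had 0 counts in each *Cd44*+/+ tumor, 1 in No203, 2 in No364 and 73 in No279. A count of 0 allows up to 3 counts, or 0.252, 0.104 and 0.126 CPM in these tumors, and the level in No279 was 2.41 CPM. *Kera* did not pass the filter on low counts and was not tested.

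*Omd* encodes osteomodulin, also called osteoadherin, a proteoglycan of mineralized bone matrix. It was at 45.2, 485 and 455 CPM in mice No244, No316 and No368 and at 21.9, 529 and 58.3 CPM in No203, No279 and No364. High and low tumors were thus found in both genotypes. No279 had little *Sp7* and *Bglap* and still had the highest *Omd*, by 1.09-fold over No316, whereas No203 had the highest *Sp7* and the lowest *Omd*. *Prelp*, whose product binds heparan sulfate and collagen, was at 87.1, 62.6 and 62.5 CPM in *Cd44*+/+ tumors and at 15.9, 662 and 95.3 CPM in No203, No279 and No364. The *Cd44*+/+ values lay within the range of the *Cd44*-/- tumors.

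*Ogn* encodes osteoglycin, also named mimecan, of class III. Its levels were 7.98, 62.4 and 61.3 CPM in mice No244, No316 and No368 and 42.7, 478 and 36.2 CPM in No203, No279 and No364. Without No279 and No244, the remaining 4 tumors lay between 36.2 and 62.4 CPM. *Podn* encodes podocan, of class V, and was at 2.86, 1.39 and 1.18 CPM in *Cd44*+/+ tumors and at 2.26, 16.7 and 1.57 CPM in No203, No279 and No364. It rested on 28 to 57 counts per tumor outside No279 and 507 counts in No279.

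**Figure D2:**
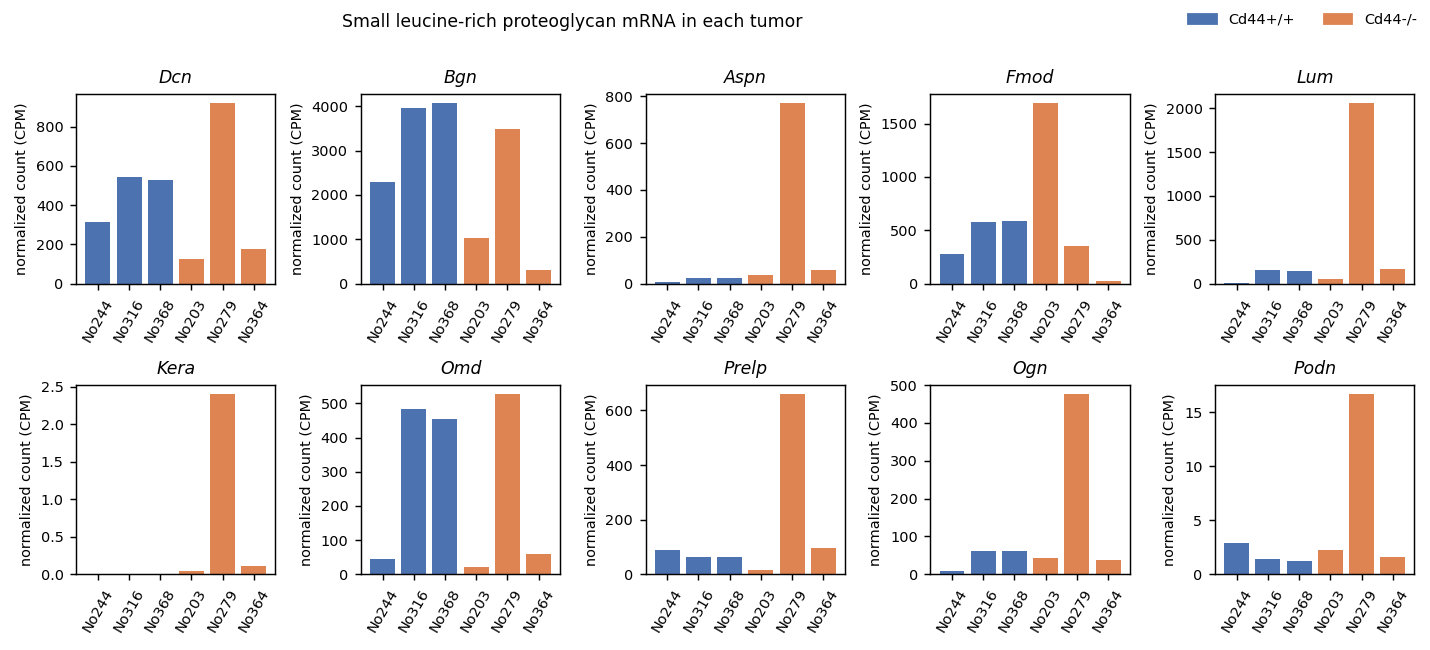
Normalized counts (CPM) of the 10 genes in each of the 6 tumors, 1 bar per tumor, each panel with its own axis from 0. No279 has the highest bar for 8 of the 10 genes, No203 for *Fmod* and No368 for *Bgn*, and among the 9 genes tested all *Cd44*-/- bars exceed all *Cd44*+/+ bars for *Aspn* alone.

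No279 had the highest level of 8 of the 10 members, while 21.5% of all genes tested had their highest level in that tumor. None of the members had its lowest level there. *Aspn*, *Lum* and *Ogn* had their lowest level in No244, the tumor with a mitochondrial share of 55.2% and a muscle list of 23502 CPM, and the part of either in these values was not tested. *Bgn* and *Fmod* had their lowest level in No364, where the hepatocyte list summed to 142508 CPM. With the hepatocyte level as a covariate no member passed the adjusted threshold either. In No279 the fibroblast list summed to 2977 CPM, the highest of the 6 tumors (267 to 1971 CPM in the others), and 6 of its 9 genes were highest there. Of the sum, *Lox* gave 1478 CPM in No279, and it was at 1487 and 1457 CPM in No316 and No368. *Mfap5* was highest in No203 and *Pi16* in No244. *Dpt*, which encodes the dermal matrix protein dermatopontin, was at 210.3 CPM in No279 and between 3.41 and 20.8 CPM elsewhere. The part of these cells in the levels of the proteoglycans was not tested.

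The spread across tumors was wide for most members. Over the 5 samples the SD of log2 CPM ran from 1.17 for *Dcn* to 3.12 for *Lum*, against a median of 0.82 over all genes tested. Of all genes tested, 68.8% had a smaller SD than *Dcn* and 97.7% a smaller SD than *Lum*. *Aspn* (2.47), *Fmod* (2.25), *Ogn* (2.11) and *Omd* (2.08) lay between them, and *Podn* had an SD of 1.44. *Bgn* (1.51) and *Dcn*, the members measured in every tumor at more than 100 CPM, were among the least variable of the 9 tested.

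**Figure D3:**
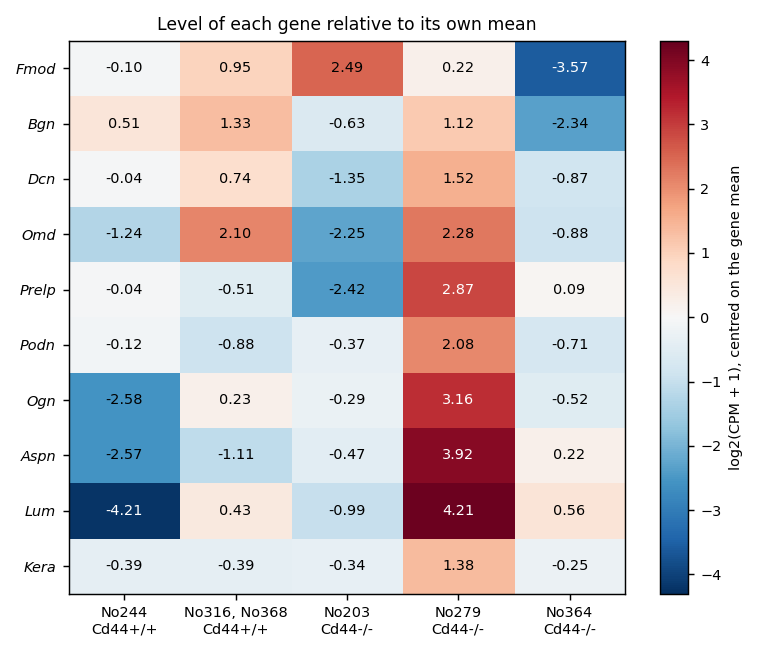
Level of each gene in each of the 5 samples as log2(CPM + 1) minus the gene's own mean over the samples, with No316 and No368 averaged. The *Lum* row runs from -4.21 in No244 to 4.21 in No279, and the *Fmod* row has its highest value (2.49) in No203 and its lowest (-3.57) in No364.

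The summed counts of the 10 genes made up 0.171%, 0.770% and 0.782% of all counts in mice No244, No316 and No368. The share was 0.337% in No203, 1.14% in No279 and 0.0658% in No364. All counts include the mitochondrial ones, which were 55.2% in No244. By normalized level the 10 genes summed to 3031 CPM in No244 and 3026 CPM in No203. Of the summed counts, *Bgn* took 75.3%, 67.5% and 68.6% in the *Cd44*+/+ tumors and 34.2%, 37.6% and 34.0% in No203, No279 and No364. *Fmod* took 56.0% in No203 and no more than 9.89% in any other tumor. *Lum* took 22.2% in No279 and 17.6% in No364, and 0.166% in No244. *Dcn* ranged from 4.15% in No203 to 18.8% in No364. The Wilson 95% intervals of these shares were at most 0.697 percentage points to either side and cover counting error only. For *Bgn* every *Cd44*-/- share lay below every *Cd44*+/+ share, while those of *Aspn* (0.250% to 0.386% against 1.18% to 8.31%) and *Ogn* (0.263% to 1.07% against 1.41% to 5.15%) were higher. *Kera* passed 3 counts in No279 only and is left out of this comparison, and the shares of the other 6 members overlapped. Shares within a tumor depend on each other, since a higher share of any gene lowers those of the others. By CPM the genotypes overlapped for *Bgn* and *Ogn*. Such shares were not computed for other genes. By CPM, 9.49% of all genes tested lay without overlap above and 9.57% below.

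**Figure D4:**
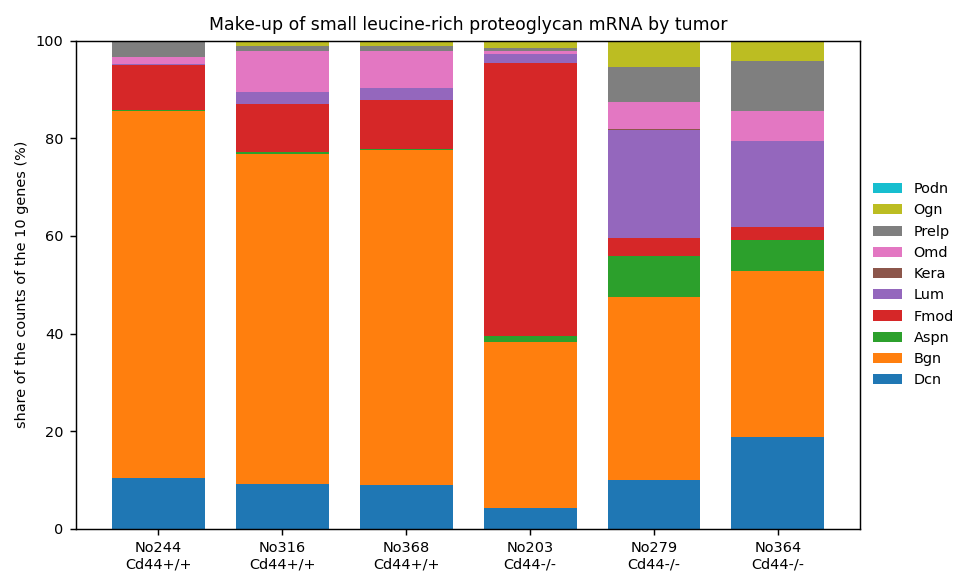
Share of the summed counts of the 10 genes that each gene took, in percent, 1 stacked bar per tumor. *Bgn* fills 67.5% or more of each *Cd44*+/+ bar, *Fmod* fills 56.0% of the No203 bar, and *Lum* is visible mainly in No279 (22.2%) and No364 (17.6%).

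Compared per kilobase of annotated exon, *Bgn* had the highest level of the 10 genes in the *Cd44*+/+ tumors, at 374, 649 and 668 CPM per kb. *Fmod* was first in No203 at 512 CPM per kb, and *Lum* was first in No279 at 841 CPM per kb and in No364 at 66.7 CPM per kb. With coding length in place of exon length, *Bgn* came first in No279 and No364 as well. *Kera* was last and *Podn* next to last in every tumor on either length. Averaged over the 5 samples, *Bgn* was at 365 ± 257 and *Lum* at 199 ± 360 CPM per kb of exon (SD), so that the difference between these genes was smaller than the spread between samples.

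Ratios within a tumor do not depend on library scaling. The ratio of *Dcn* to *Bgn*, per length of exon, was 0.143, 0.143 and 0.135 in the *Cd44*+/+ tumors and 0.127 in No203, but 0.276 in No279 and 0.578 in No364. The 4 tumors with the higher *Sp7* and *Bglap* thus held the mRNA of these genes in nearly the same proportion. The ratio of *Fmod* to *Lum* was 41.1, 2.78 and 2.99 in No244, No316 and No368 and 22.8 in No203, against 0.125 in No279 and 0.111 in No364. It spanned 372-fold and was lowest in No279 and No364. These were the tumors with the lowest *Sp7* and *Bglap* and also those with counts of all 4 Y-linked genes.

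The neighbors on chromosome 13, whose promoters are printed above, did not keep a fixed proportion. *Aspn* over *Omd*, per length of exon, was 0.160, 0.0446 and 0.0474 in the *Cd44*+/+ tumors and 1.56, 1.39 and 0.955 in No203, No279 and No364, with no overlap between genotypes. *Aspn* over *Ogn* ranged only from 0.395 in No316 to 1.76 in No279, a 4.45-fold span, against 34.9-fold for *Aspn* over *Omd*. By profile over the 5 samples, *Aspn* and *Ogn* were each other's nearest member, with a root mean square difference of 0.786 on the log2 scale. These ratios were chosen after their values were seen and carry no test. *Ecm2*, the fourth gene of the cluster, was at 4.20, 2.50 and 1.51 CPM in *Cd44*+/+ tumors and at 3.13, 6.27 and 1.36 CPM in No203, No279 and No364.

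The genotypes were compared in a single fit of all 16839 genes that passed the filter on low counts, by the quasi-likelihood test of edgeR, with p-values adjusted after Benjamini and Hochberg over all of them. Of the 10 members, 9 were tested, and none had an adjusted p under 0.05. Among all genes tested 0.0% (0 of 16839) passed, while 1810 had an unadjusted p under 0.05. This fit takes No316 and No368 as separate libraries. With their counts summed as 1 sample, 0 of 17844 genes passed and 761 had an unadjusted p under 0.05. DESeq2 called 419 genes and no member, and limma-voom called none. Of the members, 1 had an unadjusted p under 0.05 and was higher in *Cd44*-/- tumors, *Aspn*, and none was lower, beside 6.44% and 4.31% of all genes tested. With the pair summed, the counts were again 1 and 0 members, beside 324 and 437 of the 17844 genes. In 9.49% of all genes tested the *Cd44*-/- tumors all lay above the *Cd44*+/+ tumors, and in 9.57% all below, against 1 and 0 of the 9 members. Of the 9 members, 6 had a log2 fold change above 0 and 3 below 0, where 55.1% of all genes tested were above 0.

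The log2 fold change of *Aspn*, *Cd44*-/- over *Cd44*+/+, was 4.03 (SE 1.32, 95% interval 0.88 to 7.18, edgeR adjusted p = 0.452). Without No279 it was 1.41 (adjusted p = 0.465), with an interval from -0.05 to 2.88, and the unadjusted p was above 0.05 without No279 (0.0561) and without No244 (0.0753). With No316 and No368 summed, it was 4.24 with an interval from 0.07 to 8.40 (edgeR adjusted p = 0.818). *Aspn* kept a fold change above 0 in all 16 alternatives. DESeq2 gave no p-value for *Aspn*, *Omd* and *Ogn*, since its Cook's distance filter sets aside genes with an extreme count.

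*Lum* (2.91, SE 1.66, edgeR adjusted p = 0.529), *Ogn* (2.08, SE 1.23, 0.542), *Podn* (1.93, SE 1.03, 0.512) and *Prelp* (1.86, SE 1.18, 0.561) had log2 fold changes above 0 and did not pass the test. The size of all of them depended on No279. Without that tumor the values were 0.10 for *Lum*, 0.10 for *Podn*, -0.16 for *Ogn* and -0.35 for *Prelp*. The interval of *Lum* with all tumors reached from -1.06 to 6.87, so that neither a lower nor a much higher level could be told from these tumors.

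*Bgn* (-1.09, SE 1.02, edgeR adjusted p = 0.692), *Omd* (-0.69, SE 1.31, 0.857) and *Dcn* (-0.18, SE 0.84, 0.946) had log2 fold changes below 0, and *Fmod* (0.52, SE 1.25, 0.893) had one above 0. The interval of *Dcn*, the most precise, went from -2.19 to 1.83. Without No279, *Dcn* was at -1.62 (edgeR unadjusted p = 0.031, adjusted p = 0.439) and *Omd* at -3.04 (edgeR unadjusted p = 0.04998, adjusted p = 0.458). Without No203, *Fmod* was at -1.41. Leaving out 1 tumor turned the direction of *Fmod* (No203), of *Prelp* and *Ogn* (No279) and of *Dcn* (No203 or No364).

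**Figure D5:**
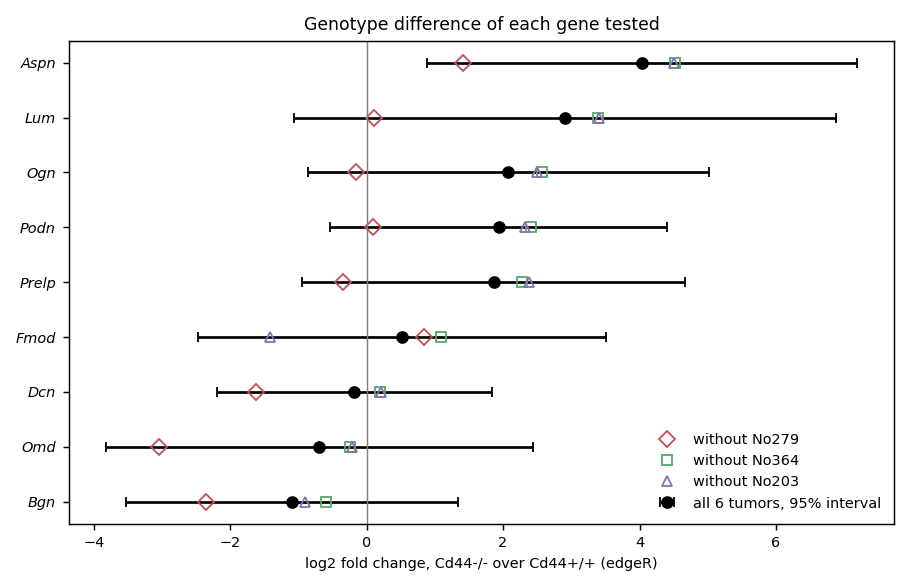
Log2 fold change, *Cd44*-/- over *Cd44*+/+, of the 9 genes tested with edgeR (black points, bars are 95% intervals), and the same value without No279, No364 or No203 (open symbols). The interval of *Aspn* (0.88 to 7.18) lies above 0, those of the other 8 genes include 0, and leaving out No279 moves *Aspn* to 1.41 and *Omd* to -3.04.

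Of 7 other genes of the family, 4 had enough counts to be tested. *Tsku*, which encodes tsukushi, a secreted inhibitor of Wnt signaling, was the highest of them in No364, at 93.8 CPM, and lay between 31.4 and 49.7 CPM in the other tumors. *Podnl1*, a relative of *Podn*, was at 72.7, 17.8 and 16.4 CPM in mice No244, No316 and No368 and at 39.4, 27.9 and 2.36 CPM in No203, No279 and No364. *Nyx*, which encodes nyctalopin of the retina, had 12, 23 and 16 counts in the *Cd44*+/+ tumors and 6, 3 and 3 counts in No203, No279 and No364, with a log2 fold change of -2.29 (edgeR adjusted p = 0.452). *Epyc* had 10 counts in No203 and 0 elsewhere, *Optc* 3 to 23 counts and *Chad* 0 to 23 counts, and these 3 genes were not tested. Of the 4 tested, 1 (*Nyx*) was lower at an unadjusted p under 0.05, and the median log2 fold change was -0.11, beside 0.11 over all genes tested.

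The collagens that bind these proteoglycans were compared next, 10 genes of which none passed at an unadjusted p under 0.05, with a median log2 fold change of 0.10. Those with the smallest p were *Col3a1* and *Col14a1*. *Col3a1*, which encodes the chain of collagen III, was at 52.9, 573 and 575 CPM in mice No244, No316 and No368 and at 301, 16394 and 1204 CPM in No203, No279 and No364 (log2 fold change 3.90, edgeR adjusted p = 0.472). Over the 5 samples its order was that of *Lum*. *Col14a1*, which encodes a fibril-associated collagen, was at 3.19, 13.1 and 13.6 CPM and at 9.60, 35.6 and 28.7 CPM in the same order (edgeR adjusted p = 0.520).

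The enzymes that build the sugar chains were compared in the same fit. Of 21 enzymes of chondroitin and dermatan sulfate, 1 was lower in *Cd44*-/- tumors at an unadjusted p under 0.05 and none higher, with a median of -0.14. That was *B4galt7*, which adds the first galactose to the linker, at 46.6, 49.8 and 51.7 CPM in *Cd44*+/+ tumors and at 27.2, 20.8 and 9.21 CPM in No203, No279 and No364 (log2 fold change -1.37, edgeR adjusted p = 0.452). *Chst3*, a chondroitin 6-sulfotransferase, followed (-1.95, edgeR adjusted p = 0.503). Of the 10 keratan sulfate and sulfate supply genes, 9 were tested and none passed at an unadjusted p under 0.05, with a median of 0.17. The smallest p belonged to *Papss2*, which makes the sulfate donor, at 167 CPM in No364 and 24.6 to 35.1 CPM elsewhere, and to *Slc26a2*, a sulfate transporter, with a log2 fold change of -0.86.

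Of 11 proteases and helpers that process these proteins, 10 were tested, 1 was higher and 2 were lower in *Cd44*-/- tumors at an unadjusted p under 0.05, with a median of -0.36. *Bmp1*, the procollagen C-proteinase that also trims probiglycan, was at 1204, 785 and 770 CPM in mice No244, No316 and No368 and at 363.6, 154 and 105 CPM in No203, No279 and No364 (log2 fold change -2.15, SE 0.66, edgeR adjusted p = 0.452). *Mmp3*, stromelysin 1, was at 0.840, 1.25 and 1.09 CPM against 1.86, 46.3 and 3.82 CPM in the same order (4.01, SE 1.29, edgeR adjusted p = 0.452). The genotypes did not overlap for either gene, but both were named for their small p. Of the 10 tested, 2 lay without overlap above and 2 below, beside 9.49% and 9.57% of all genes tested. *Adamts5*, an aggrecanase, was the other gene that was lower (-1.60, edgeR adjusted p = 0.452).

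Of 11 ligands and receptors of the family, 2 were higher in *Cd44*-/- tumors at an unadjusted p under 0.05 and none lower, with a median of -0.10. *Egfr*, the EGF receptor, to which decorin binds, was at 550.3 CPM in No364, 33.1 CPM in No279 and 6.47 to 10.4 CPM in the other 4 tumors. *Met*, the HGF receptor, was at 12.7, 1.98 and 1.18 CPM in *Cd44*+/+ tumors and at 13.8, 75.5 and 88.0 CPM in No203, No279 and No364. Both receptors were highest in No364, where the hepatocyte list summed to 142508 CPM, and the part of liver cells in these values was not tested. Of 11 other matrix proteoglycans 8 were tested, 1 was higher at an unadjusted p under 0.05 and the median was 0.26. That was *Acan*, which encodes aggrecan, at 0.168, 1.36 and 0.882 CPM in mice No244, No316 and No368 and at 10.1, 153 and 10.3 CPM in No203, No279 and No364 (log2 fold change 6.11, edgeR adjusted p = 0.452). *Prg4*, lubricin, had the next smallest p, with a log2 fold change of 0.77.

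For each tested member the gene with the most similar profile over the 5 samples was looked up among all genes tested, by the root mean square difference of centered log2 CPM. The nearest gene to *Fmod* was *Col1a1*, which encodes a chain of collagen I (difference 0.346), at 8482, 16305 and 16925 CPM in mice No244, No316 and No368 and 29441, 11990.4 and 765 CPM in No203, No279 and No364. *Bgn* was nearest to *Eml1* (0.092), *Podn* to *Loxl1* (0.235), which encodes a lysyl oxidase, *Omd* to *Wnt7b* (0.355), *Prelp* to *Slc24a3* (0.303) and *Ogn* to *Ism1* (0.178). The nearest genes to *Dcn* (*Gm13031*, 0.090), *Aspn* (*Gm21451*, 0.157) and *Lum* (*Gm20481*, 0.343) have predicted-gene names, and *Gm13031* stayed at 1.52 CPM or less. *Ism1* and *Gm20481* were each at 0.084 CPM in No244, under the level of 3 counts there (0.252 CPM). Each profile has 5 points and was compared with 16839 genes, and the median difference to all genes ran from 1.28 for *Dcn* to 2.86 for *Lum*. No member was the nearest gene to another.

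The remaining marker lists were measured beside the members. The 7 tenocyte genes summed to 1944 CPM in No203, where *Fmod* was highest, and to between 111 and 1463 CPM elsewhere. Most of this was *Tnc* in No203 (1376 CPM) and in No244 (1275 CPM), and *Col11a1* gave 386 CPM in No203. *Scx*, a tendon transcription factor, was between 2.56 and 30.8 CPM, and *Tnmd*, the defining tendon gene, had at most 10 counts (No203). Of the 9 osteoblast genes, 5 were highest in No203 and none in No279 or No364. The 10 chondrocyte genes summed to between 29.1 and 177 CPM, with *Col2a1* at 38.3 CPM in No244, 21.0 CPM in No203 and at most 0.627 CPM elsewhere. In No316 and No368 *Hapln1* gave 161 and 160 CPM of the sum, and it was at 1.11 CPM or less elsewhere. The 7 endothelial genes were at 464 CPM in No279 and between 110 and 289 CPM elsewhere, and the 9 macrophage and osteoclast genes between 10130 and 13169 CPM in No244, No203 and No279 and between 1049 and 1109 CPM in No316, No368 and No364. The 8 hepatic stellate genes summed to 601 CPM in No244, of which *Des*, also a muscle gene, gave 589.6 CPM, and to 143 CPM or less elsewhere. Of these genes 5 were highest in No364, and *Lrat*, the defining gene of these cells, was at 8.27 CPM in No364 with 1 count or less elsewhere. The 5 keratocyte genes, *Kera* among them, summed to 2142 CPM in No364, of which *Aldh1a1* gave 2111 CPM, and to 71.7 to 276 CPM elsewhere. *Kera*, *Aldh3a1* and *Cd34* were highest in No279. The part of these cells in the levels of the proteoglycans was not tested.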

How the data were processed

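RNA of 6 mouse osteosarcomas, 3 per *Cd44* genotype, was examined. Libraries from a stranded mRNA kit gave single-end reads, which were aligned to GRCm38 with HISAT2 2.0.2 and counted per gene with featureCounts (Subread 2.0.0). The authors deposited raw counts per Ensembl gene and tumor, without normalization. The extraction protocol in the labels mentions cell lines, whereas the sample labels and the methods name tumor tissue, which was followed here. All columns were used and groups came from the labels. Replicates are separate by mouse number only, and p-values measure the spread between these libraries.

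Gene names were found for 37693 of 39179 identifiers in GENCODE M21, and promoters came from RefSeq. The difference between genotypes was fitted with the quasi-likelihood test of edgeR 4.0.16 (R 4.3.3) after TMM scaling and filterByExpr, with genotype as the only term and Benjamini-Hochberg adjustment (threshold 0.05). The SE was taken from the log2 fold change and its F statistic. A level under 3 counts was not read as detected (0.0990 to 0.252 CPM). Pairs of tumors were compared over genes with at least 20 summed counts. The fit was run on simulated counts with known changes. Recovery was required only at a low dispersion, and the simulated libraries were independent, unlike No316 and No368. Alternatives were other scalings, DESeq2 1.42.0, limma-voom (limma 3.58.1), no low-count filter (total count over 1), no mitochondrial genes, No316 and No368 summed, a hepatocyte covariate, and tumors left out. The use of only the 4 tumors with *Xist* counts was added after seeing the data.

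The members and gene lists were chosen with earlier results of these data known. All members are named with their values, of each other list the 2 genes with the smallest unadjusted p and any gene past 0.05, of each marker list its defining genes, and for each member the gene with the nearest profile (log2 CPM with prior count 2).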

Additional observations from a re-analysis of the deposited data

How the results depend on the processing

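Under 16 alternatives no member was called, and *Bgn*, *Aspn*, *Omd* and *Podn* kept their direction in all of them. The count of genes called in the whole table was 0 in each alternative except DESeq2, with 419. *Dcn* turned to 0.31 with the hepatocyte covariate, *Fmod* to -0.93 with limma-voom, and with only the 4 tumors with *Xist* counts, an alternative chosen after seeing the data, *Lum* turned to -0.89, *Prelp* to -2.15 and *Ogn* to -0.051. Leaving out each tumor in turn gave -1.62 to 0.21 for *Dcn* (0.21 without No203 and 0.19 without No364), -1.41 to 1.09 for *Fmod*, -0.35 to 2.38 for *Prelp*, -0.16 to 2.57 for *Ogn*, 0.10 to 3.41 for *Lum*, 1.41 to 4.52 for *Aspn*, 0.10 to 2.41 for *Podn*, -2.35 to -0.60 for *Bgn* and -3.04 to -0.21 for *Omd*. The cause of these turns was not tested beyond the tumor left out.

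Members higher in *Cd44*-/- tumors at an unadjusted p under 0.05 numbered 1, and 2 without the low-count filter and 2 with DESeq2 (*Lum* and *Kera*). *Kera* is counted in both of these alternatives, though it passed 3 counts in No279 only. DESeq2 gave no p-value for *Aspn*. Such members numbered 0 with limma-voom, 2 with the hepatocyte covariate, 0 without No244 and No364 together, and 0 to 2 with each tumor left out in turn. Over all genes tested, those higher numbered 1085 of 16839 in the main fit, 1702 of 25317 without the filter and 1490 of 25317 with DESeq2. They numbered 591 of 16839 with limma-voom, 800 of 16839 with the covariate and 1534 of 17197 without No244 and No364. With each tumor left out they numbered 335 to 1720. Members lower numbered 0, and 0 to 2 with each tumor left out. Over all genes tested, those lower numbered 725 of 16839 in the main fit and 428 to 1365 with each tumor left out. Members whose genotypes did not overlap numbered 1 above, and 1 to 3 with each tumor left out. They numbered 2 above without No244 and No364, and 2 with the 4 tumors with *Xist* counts. Below there were 0, and 1 without No244 and No364, 4 with these 4 tumors and 0 to 2 with each tumor left out. Over all genes tested, 1598 lay above and 1611 below of 16839 in the main fit. Without No244 and No364 these were 4550 and 4895 of 17197, and with the 4 tumors 5188 and 4765 of 18302. With each tumor left out, 1876 to 3541 genes lay above and 1796 to 3515 below. The counts over all genes thus also rose in these alternatives. Where a *Cd44*-/- arm held 1 tumor, that tumor was assumed to vary like the others. No paired analysis was possible because the mouse numbers are not shared between genotypes. Use of coding length changed the order of levels between members as given above. The intervals in the report come from the 6 libraries. With No316 and No368 summed, 761 genes had an unadjusted p under 0.05 in place of 1810.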
